A study of Homo sapiens with 16 samples.

Results

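The genes described here are 35 genes of cholesterol and fatty acid synthesis, chosen by symbol in the GENCODE release 29 annotation from 58295 annotated genes. They comprise 18 enzymes of the sterol pathway, 9 enzymes that make, lengthen or desaturate fatty acids, 5 genes that control the SREBP transcription factors or carry sterol, and 3 targets of the LXR nuclear receptors. Expression was measured by sequencing of polyadenylated RNA in 16 libraries of JSL1, a clone of the Jurkat line of leukemic human T cells, grown in medium with fetal bovine serum. Cells received 20 ng/mL of the phorbol ester PMA, which activates protein kinase C, or growth medium alone, and all labels give a time of 48 h. Each treatment was applied to 3 lines. The dE9 line carries a knock-out of exon 9 of HDAC7, a class IIa histone deacetylase, and has 3 PMA and 3 unstimulated libraries. The iE9 line carries a knock-in of that exon and also has 3 PMA and 3 unstimulated libraries. The unedited wild type (WT) has 2 PMA and 2 unstimulated libraries. Both edited lines were made with CRISPR-Cas9, and the labels say neither whether a line is 1 clone nor whether its libraries came from separate cultures, so the p-values measure only the spread between these libraries, which may be technical.

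Cholesterol and fatty acids are both built from acetyl-CoA. The sterol arm passes through mevalonate, isoprenoid diphosphates and squalene to lanosterol, which is then trimmed to cholesterol. The fatty acid arm carboxylates acetyl-CoA to malonyl-CoA and condenses it to palmitate, which desaturases and elongases modify. When membranes are low in sterol, SCAP escorts SREBP proteins to the Golgi, where they are cut and released to activate genes of both arms. INSIG proteins hold the SCAP and SREBP complex back when sterol is plentiful, and LXR receptors, which sense oxysterols, switch on sterol export. Proliferating T cells draw on both arms for new membrane.

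The libraries held 14536537 to 21888896 estimated counts. The share of HDAC7 transcripts with exon 9, which checks the labels, was 0.226% ± 0.391 in PMA-treated and 3.45% ± 3.46 in unstimulated dE9 cells (SD, n = 3 each). It was 49.9% ± 11.4 with PMA and 61.6% ± 11.9 unstimulated in iE9 (SD, n = 3 each), against 48.5% ± 7.57 with PMA and 47.0% ± 0.636 unstimulated in WT (SD, n = 2 each). With PMA the iE9 share was thus no higher than that of WT beyond its spread, and these are called the libraries labelled iE9. Total HDAC7, in counts scaled to equal library size (CPM), was higher in iE9 than in WT. It stood at 405, 325 and 322 CPM with PMA in iE9, against 244 and 238 CPM in WT. Unstimulated it stood at 204, 129 and 172 CPM in iE9, against 45.7 and 58.1 CPM in WT. Mitochondrially encoded genes took a larger share of counts with PMA in each line. The share was 6.39%, 6.26% and 5.2% with PMA, against 3.0%, 3.69% and 3.63% unstimulated in dE9, and 6.04% and 5.76% with PMA, against 3.48% and 3.75% unstimulated in WT. In iE9 it was 12.81%, 5.98% and 5.67% with PMA, against 9.17%, 4.14% and 3.85% unstimulated, so that the libraries numbered 1 stood apart. All 8 T cell markers reached 1 TPM in at least 1 library, although CD2 ran from 0.0539 to 27.7 TPM and CD7 from 4.7 to 60.5 TPM, with summed levels of 3170 to 4890 TPM with PMA and 2000 to 3950 TPM unstimulated. Of the B cell markers CD79A ran from 8.31 to 538 TPM, while MS4A1 stayed at or under 1.18 TPM and PAX5 at or under 0.138 TPM. The hepatocyte markers ALB, APOA1, TTR and SERPINA1 summed to 0.468 to 3.99 TPM with PMA and at most 1.78 TPM unstimulated, the 4 adipocyte markers stayed under 1 TPM in sum with FABP4 at 0, and the monocyte markers, mostly CD68, summed to 4.52 to 8.94 TPM with PMA and 0.645 to 3.64 TPM unstimulated. The part of these differences in the results below was not tested.

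The 5 promoter windows below are shown because their genes mark the range of responses to PMA in the lines: SCD and LSS had lower mRNA with PMA in each line, INSIG1 was called lower in WT, SREBF2 passed in no line, and MYLIP had higher mRNA with PMA in each line. Each runs 5′ to 3′ on the gene's strand, from 250 bases before to 50 bases after the RefSeq start (GRCh38.p14). Capitals mark CCAAT boxes on either strand (CCAAT, or ATTGG on the reverse), the sterol regulatory element TCACNCCAC and the E-box CACGTG.
SCD, chr10:100346983-100347282, plus strand: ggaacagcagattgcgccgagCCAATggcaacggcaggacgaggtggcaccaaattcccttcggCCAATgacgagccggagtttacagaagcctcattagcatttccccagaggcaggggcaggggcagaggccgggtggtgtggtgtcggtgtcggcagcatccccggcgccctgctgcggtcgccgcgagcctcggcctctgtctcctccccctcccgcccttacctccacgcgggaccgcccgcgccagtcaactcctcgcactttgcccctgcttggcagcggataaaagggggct
LSS, chr21:46228725-46229024, minus strand: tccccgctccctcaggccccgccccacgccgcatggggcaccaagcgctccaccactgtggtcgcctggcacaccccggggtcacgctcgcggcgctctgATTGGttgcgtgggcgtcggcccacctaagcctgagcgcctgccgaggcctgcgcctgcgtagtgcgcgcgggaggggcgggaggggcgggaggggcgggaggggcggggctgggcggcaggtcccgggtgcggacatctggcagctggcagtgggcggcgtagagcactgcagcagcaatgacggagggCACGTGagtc
INSIG1, chr7:155297628-155297927, plus strand: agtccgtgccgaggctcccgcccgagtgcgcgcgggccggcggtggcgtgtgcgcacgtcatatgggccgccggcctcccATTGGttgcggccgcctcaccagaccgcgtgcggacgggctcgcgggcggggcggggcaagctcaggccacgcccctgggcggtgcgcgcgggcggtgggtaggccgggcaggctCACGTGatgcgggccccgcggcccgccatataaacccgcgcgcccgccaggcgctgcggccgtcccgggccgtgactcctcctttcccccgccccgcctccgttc
SREBF2, chr22:41832855-41833154, plus strand: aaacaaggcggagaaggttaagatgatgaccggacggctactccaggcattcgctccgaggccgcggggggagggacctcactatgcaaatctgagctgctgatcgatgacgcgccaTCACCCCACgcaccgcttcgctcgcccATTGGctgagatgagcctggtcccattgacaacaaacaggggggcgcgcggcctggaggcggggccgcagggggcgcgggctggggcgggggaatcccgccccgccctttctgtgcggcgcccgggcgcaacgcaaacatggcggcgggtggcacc
MYLIP, chr6:16128836-16129135, plus strand: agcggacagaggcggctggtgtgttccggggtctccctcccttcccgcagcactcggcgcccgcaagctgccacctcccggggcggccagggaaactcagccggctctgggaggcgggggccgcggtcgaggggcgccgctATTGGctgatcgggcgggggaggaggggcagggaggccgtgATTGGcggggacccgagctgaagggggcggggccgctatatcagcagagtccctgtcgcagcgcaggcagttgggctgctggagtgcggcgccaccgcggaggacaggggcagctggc
A window was found for 30 of the 35 genes, and ACAT2, ABCG1, FASN, FDFT1 and SQLE had none. A CCAAT box on either strand was present in the windows of 23 of the 30 genes (76.7%), against 39.7% of all 27305 genes and 34.6% of all 35116 windows of this length. The box binds NF-Y, a factor that works beside SREBPs at many sterol genes. SREBF2 was the 1 gene of the 30 with TCACNCCAC, which stood in the windows of 1.39% of all genes and in 1.13% of all windows. CACGTG, which reads the same on both strands and overlaps none of the other motifs searched, was found for 6 of the 30 genes (20.0%), LSS, SC5D, INSIG1, SCAP, ELOVL5 and ABCA1, against 8.77% of all genes and 7.26% of all windows. A letter match is a description of the window and shows no binding.

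The first question was how PMA moved the pathway in each line. All 35 genes passed the filter on low counts. By edgeR's quasi-likelihood test at an adjusted p under 0.05, 14 of them changed in dE9, with 3 higher and 11 lower (40.0%, where 33.5% of all 18073 genes tested changed, 17.1% higher and 16.5% lower). In the libraries labelled iE9 10 changed, with 1 higher and 9 lower (28.6%, against 27.1% of all genes, 12.6% higher and 14.4% lower). In WT 11 changed, with 1 higher and 10 lower (31.4%, against 22.3% of all genes, 11.1% higher and 11.3% lower). The share of changed genes was thus near that of all genes in iE9 and somewhat above it in dE9 and WT, but in a fit on the dE9 groups alone it was 29.4%, against 29.2% of all genes. The mitochondrial share of counts moved with PMA in the same libraries, as given above, and its part in these changes was not tested. The genes that fell made up 31.4% of the 35 in dE9, 25.7% in iE9 and 28.6% in WT, and those that rose 8.57%, 2.86% and 2.86%. The median log2 fold change of the 35 genes was -0.42 in dE9, -0.38 in iE9 and -0.62 in WT, where the median of all genes tested was 0.06, -0.01 and 0.03 in the same order. Since RNA of whole cultures was sequenced, fewer cells with a transcript and less of it per cell cannot be told apart.

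Within dE9 and within iE9, libraries with the same number deviated together, so that a fit with the number as a block applies to them. In iE9 this was clearest for library 1 (r = 0.441). Pairs 2 and 3 had r = 0.226 and 0.19, where PMA library 3 with unstimulated library 2 had 0.153. Calls made in iE9 only with the block are therefore less sure. The block fit called 22 of the 35 genes in dE9 (62.9%, against 45.2% of all genes tested) and 18 in iE9 (51.4%, against 39.8%). In WT, with 2 libraries per group, the lone library left when another is dropped is assumed to vary like the other groups. The count was 6 without unstimulated library 1 (17.1%, against 7.26% of all genes in that fit), 6 without unstimulated library 2 (17.1%, against 9.74%), 5 without PMA library 1 (14.3%, against 8.73%) and 4 without PMA library 2 (11.4%, against 8.57%).

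Over the lines, 8 genes passed in all 3, FASN, ACACA, SCD, FADS1, LSS, FDPS and ACAT2 lower and MYLIP higher, whereas 2837 of all genes tested (15.7%) were called in all 3. A further 8 genes passed in 1 or 2 lines, and 19 passed in none. Library by library, the PMA and unstimulated groups did not overlap for 17 of the 35 genes in dE9, with PMA lower for 13 of them (48.6%, against 45.1% of all genes, 23.1% with PMA lower). They did not overlap for 12 genes in iE9, with PMA lower for 9 (34.3%, against 41.3% of all genes, 21.2% with PMA lower). With 2 against 2 libraries in WT they did not overlap for 33 genes, with PMA lower for 29 (94.3%, against 73.3% of all genes, 36.0% with PMA lower).

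**Figure D1:**
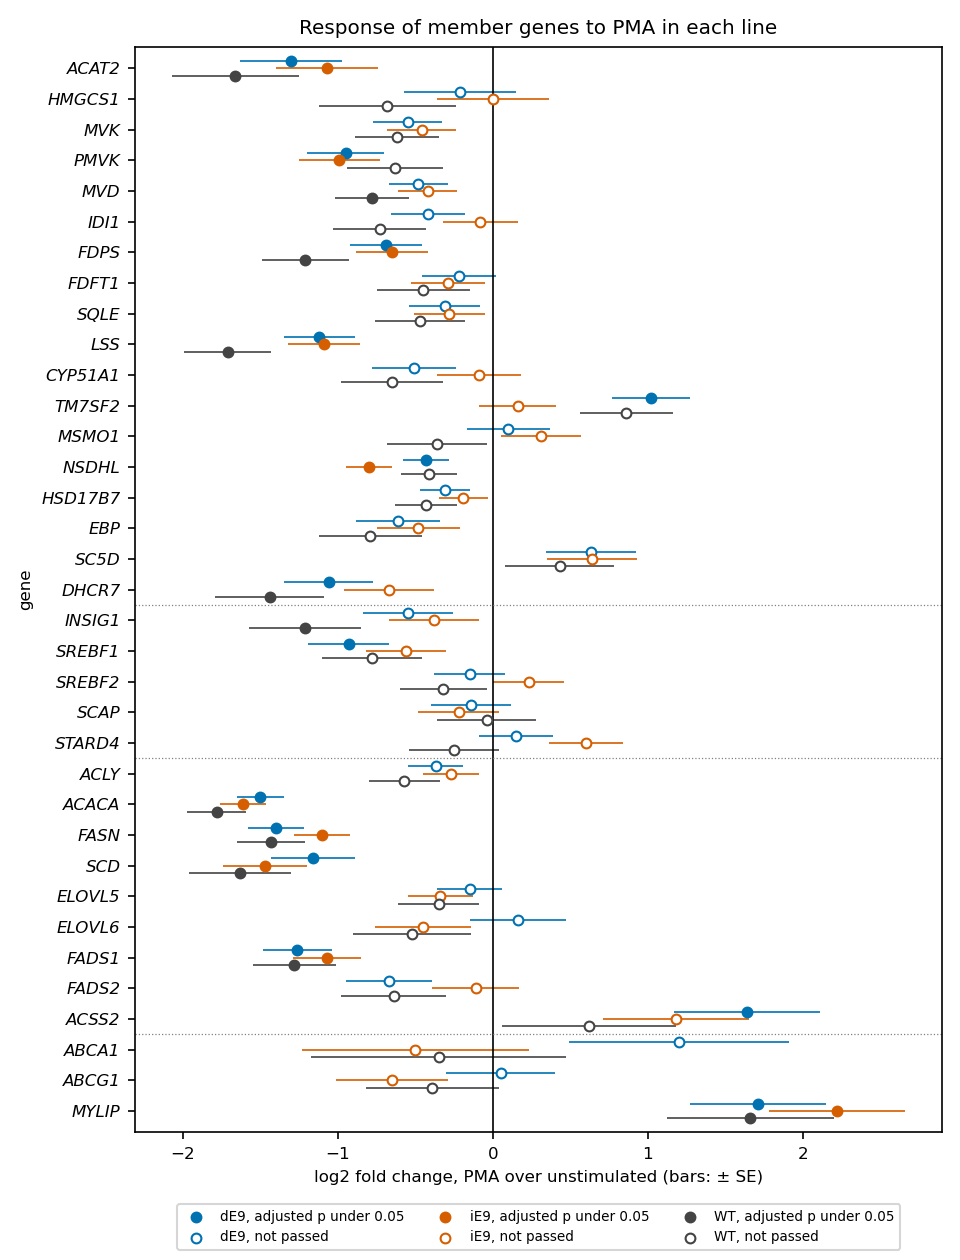
Log2 fold change of each of the 35 genes (rows, grouped by role and separated by dotted lines) for PMA over unstimulated cells, with bars of 1 SE, in dE9 (blue), iE9 (orange) and WT (grey). Filled points have an adjusted p under 0.05. ACACA, FASN, SCD, FADS1 and LSS lie at or below -1.07 in every line, MYLIP at or above 1.66, and HMGCS1, SQLE, SREBF2 and SCAP nearer to 0 with no filled point.

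In the fatty acid arm, mRNA of enzymes of carboxylation, chain synthesis and desaturation fell, although the desaturase FADS2 passed in no line. Of the arm's 9 genes, 4 fell and 1 rose in dE9, 4 fell in iE9 and 4 fell in WT. The 4 that fell were the same in each line: ACACA, FASN, SCD and FADS1. The changed share was 55.6% in dE9, 44.4% in iE9 and 44.4% in WT, where 33.5%, 27.1% and 22.3% of all genes changed. These shares rest on only 9 genes, and whether they set the arm apart was not tested. The median log2 change of the arm was -0.67 in dE9, -0.45 in iE9 and -0.64 in WT.

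ACACA (chromosome 17, 37084988 to 37406818, minus strand, hg38) encodes the acetyl-CoA carboxylase that makes malonyl-CoA, the committed step of the arm. It stood at 60.9, 66.7 and 55.9 CPM (counts scaled to equal library size) in PMA-treated dE9 cells, against 191, 175 and 154 CPM in unstimulated dE9 cells. In the libraries labelled iE9 it stood at 59.6, 53.3 and 45.5 CPM with PMA, against 167, 178 and 137 CPM unstimulated. In WT it stood at 71.9 and 65.3 CPM with PMA, against 237 and 234 CPM unstimulated. Every PMA library therefore lay below every unstimulated library of the 3 lines. On the log2 scale ACACA fell by 1.5 ± 0.15 (SE) in dE9 (adjusted p = 1.2e-05), by 1.61 ± 0.15 in iE9 (1.02e-05) and by 1.78 ± 0.19 in WT (4.63e-05).

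FASN (chromosome 17, 82078333 to 82098332, minus strand) encodes fatty acid synthase, which builds palmitate from malonyl-CoA. It stood at 207, 152 and 141 CPM in PMA-treated dE9 cells, against 466, 409 and 447 CPM in unstimulated ones. The libraries labelled iE9 held 174, 183 and 153 CPM with PMA, against 313, 450 and 332 CPM unstimulated. The WT libraries held 202 and 203 CPM with PMA, against 519 and 570 CPM unstimulated. The groups did not overlap in any line. FASN fell by 1.4 ± 0.18 on the log2 scale in dE9 (adjusted p = 6.45e-05), by 1.1 ± 0.18 in iE9 (0.00052) and by 1.43 ± 0.22 in WT (0.000626).

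SCD (chromosome 10, 100347124 to 100364834, plus strand) encodes the desaturase that puts the first double bond into stearate and palmitate, and its promoter window, shown above, holds 2 CCAAT boxes. It stood at 188, 413 and 224 CPM in PMA-treated dE9 cells, against 746, 531 and 572 CPM in unstimulated ones. In iE9 its levels were 408, 301 and 304 CPM with PMA, against 1090, 1000 and 722 CPM unstimulated. Its WT levels were 383 and 342 CPM with PMA, against 1030 and 1210 CPM unstimulated. The PMA-treated dE9 library 2 was the nearest to its unstimulated group, yet still below it. SCD fell by 1.16 ± 0.27 on the log2 scale in dE9 (adjusted p = 0.00403), by 1.47 ± 0.27 in iE9 (0.00124) and by 1.63 ± 0.33 in WT (0.00347).

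FADS1 (chromosome 11, 61799625 to 61829318, minus strand), a desaturase of polyunsaturated fatty acids, stood at 86.7, 87.1 and 54.5 CPM with PMA, against 222, 177 and 146 CPM unstimulated in dE9. In the libraries labelled iE9 it stood at 133, 97.5 and 93.5 CPM with PMA, against 273, 220 and 188 CPM unstimulated. WT cells had 103 and 87.8 CPM with PMA, against 222 and 242 CPM unstimulated. Its groups did not overlap in any line, and it fell by 1.26 ± 0.22 on the log2 scale in dE9 (adjusted p = 0.000704), by 1.07 ± 0.22 in iE9 (0.00277) and by 1.28 ± 0.27 in WT (0.00458, and 0.0616 without WT PMA library 2). The neighbouring desaturase FADS2, whose exons overlap those of FADS1 on the opposite strand, passed in no line. It stood at 260, 513 and 197 CPM with PMA, against 576, 553 and 420 CPM unstimulated in dE9, at 605, 445 and 430 CPM with PMA, against 603, 523 and 471 CPM unstimulated in iE9, and at 501 and 438 CPM with PMA, against 688 and 776 CPM unstimulated in WT. The WT groups did not overlap, whereas those of dE9 and iE9 did. Its log2 change was -0.67 ± 0.28 in dE9 (adjusted p = 0.0777, and 0.00648 with the replicate block), -0.11 ± 0.28 in iE9 (0.807) and -0.64 ± 0.34 in WT (0.197). Whether the counting used strand is not given in the sources used here, so reads of the shared exons cannot be assigned with certainty. FADS2 also shares exons on its own strand with FEN1, a nuclease of DNA replication, whose log2 change was -2.13 in dE9 (0.0027), -1.06 in iE9 (0.0936) and -1.81 in WT (0.0317).

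The 2 enzymes that supply acetyl-CoA to the cytosol differed in sign. ACLY, which cleaves citrate, had log2 changes of -0.37 ± 0.18 in dE9, -0.27 ± 0.18 in iE9 and -0.57 ± 0.23 in WT, none of which passed (adjusted p = 0.138, 0.307 and 0.0817), although it passed as lower with the replicate block in dE9 (0.00722) and iE9 (0.0417). ACSS2, which uses acetate, stood at 7.17, 31.5 and 12.3 CPM in PMA-treated dE9 cells, against 5.73, 4.67 and 5.93 CPM in unstimulated ones. It rose in dE9, by 1.64 ± 0.47 on the log2 scale (adjusted p = 0.0148), with PMA library 2 far above the others, and without that library the change was 0.88 (adjusted p = 0.121). The call was also lost without unstimulated dE9 library 2 (0.0541) and in a fit on the 2 dE9 groups alone (0.0546). In iE9 it was 1.18 ± 0.47 (adjusted p = 0.0759, and 0.0319 with the replicate block) and in WT 0.62 ± 0.56 (0.465). The elongases ELOVL5 and ELOVL6 had log2 changes between -0.52 and 0.16 over the lines, and neither passed, although ELOVL5 passed as lower with the block in iE9 (0.034).

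Of the 18 genes of the sterol arm, 6 fell and 1 rose in dE9, 5 fell in iE9 and 5 fell in WT, and 3 fell in all lines: ACAT2, FDPS and LSS. The changed share was 38.9% in dE9, 27.8% in iE9 and 27.8% in WT, against 33.5%, 27.1% and 22.3% of all genes. These shares rest on 18 genes and count both directions. In that measure they are close to those of all genes and do not set the arm apart. By direction, 33.3% of the 18 fell in dE9, 27.8% in iE9 and 27.8% in WT, against 16.5%, 14.4% and 11.3% of all genes. In dE9 5.56% rose, and in iE9 and WT 0.0%, against 17.1%, 12.6% and 11.1% of all genes. Whether the arm differs from all genes in direction was not tested. The median log2 change of the 18 was -0.45 in dE9, -0.36 in iE9 and -0.64 in WT.

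LSS (chromosome 21, 46188141 to 46228824, minus strand) encodes lanosterol synthase, which folds epoxidized squalene into the first sterol, and its promoter window is the second of those shown. It stood at 91.6, 168 and 95.1 CPM in PMA-treated dE9 cells, against 251, 281 and 237 CPM in unstimulated ones. The libraries labelled iE9 held 151, 129 and 134 CPM with PMA, against 234, 376 and 271 CPM unstimulated. In WT it stood at 124 and 119 CPM with PMA, against 370 and 421 CPM unstimulated. The highest PMA library, at 168 CPM, lay below the lowest unstimulated one, at 234 CPM. LSS fell by 1.12 ± 0.23 on the log2 scale in dE9 (adjusted p = 0.00176), by 1.09 ± 0.23 in iE9 (0.00276) and by 1.71 ± 0.28 in WT (0.000967).

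The first enzyme of the arm, the cytosolic thiolase ACAT2 (chromosome 6, 159760328 to 159779055, plus strand), stood at 71.4, 78.1 and 35.8 CPM with PMA, against 183, 144 and 129 CPM unstimulated in dE9. In iE9 its levels were 50.5, 84.1 and 81.6 CPM with PMA, against 83.2, 206 and 165 CPM unstimulated. The WT libraries held 79.6 and 62.5 CPM with PMA, against 226 and 223 CPM unstimulated. It fell by 1.3 ± 0.33 on the log2 scale in dE9 (adjusted p = 0.00697), by 1.07 ± 0.33 in iE9 (0.0245) and by 1.66 ± 0.41 in WT (0.00957). The iE9 groups overlapped at unstimulated library 1, and that call was lost without unstimulated library 2 (0.128), unstimulated library 3 (0.0731) or PMA library 1 (0.0954). The WT call was lost without unstimulated library 1 (0.0543), PMA library 1 (0.0545) or PMA library 2 (0.0982). Exons of ACAT2 overlap those of TCP1, a chaperonin subunit on the opposite strand at a mean of 597 TPM, whose log2 change was -0.81 in dE9 (adjusted p = 0.0121), -0.81 in iE9 (0.0143) and -0.79 in WT (0.0516). They also overlap SOD2, whose log2 change was -1.01 in dE9, -0.97 in iE9 and -1.28 in WT (adjusted p = 0.000964, 0.00181 and 0.00173).

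The next enzyme, HMGCS1, which makes HMG-CoA, passed in no line. It stood at 154, 345 and 154 CPM in PMA-treated dE9 cells, against 358, 253 and 143 CPM in unstimulated ones, so that the groups overlapped. In the libraries labelled iE9 it stood at 258, 315 and 338 CPM with PMA, against 196, 433 and 284 CPM unstimulated. Its WT levels were 256 and 278 CPM with PMA, against 386 and 471 CPM unstimulated, a log2 change of -0.68 ± 0.44 (adjusted p = 0.292). Its changes of -0.21 ± 0.36 in dE9 (0.699) and -0.0 ± 0.36 in iE9 (0.999) lay nearer to 0. SQLE, which epoxidizes squalene, stood at 85.9, 105 and 75.1 CPM with PMA, against 125, 106 and 99.6 CPM unstimulated in dE9, at 186, 128 and 128 CPM with PMA, against 250, 165 and 122 CPM unstimulated in iE9, and at 105 and 116 CPM with PMA, against 143 and 163 CPM unstimulated in WT. It too passed in no line, with log2 changes of -0.31 ± 0.23 in dE9, -0.28 ± 0.23 in iE9 and -0.47 ± 0.29 in WT (adjusted p = 0.334, 0.4 and 0.262).

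The kinases and the decarboxylase that turn mevalonate into isopentenyl diphosphate were called in different lines. PMVK stood at 39.2, 38.3 and 25 CPM with PMA, against 54, 82.2 and 61.2 CPM unstimulated in dE9, a fall of 0.95 ± 0.25 on the log2 scale (adjusted p = 0.00999). In iE9 it stood at 21, 33.6 and 32.8 CPM with PMA, against 39, 70.4 and 64.4 CPM unstimulated, a fall of 0.99 ± 0.26 (0.01). WT cells had 38.4 and 35.9 CPM with PMA, against 61.6 and 53.1 CPM unstimulated, a change of -0.63 ± 0.31 (0.162). The groups of each line did not overlap. The calls were lost without unstimulated library 2 of the same line (adjusted p = 0.0521 in dE9 and 0.0525 in iE9). MVD fell in WT, by 0.78 ± 0.24 on the log2 scale (0.0291), standing at 103 and 100 CPM with PMA, against 163 and 186 CPM unstimulated. That call was lost without any 1 of the 4 WT libraries (0.0945 to 0.172) and without unstimulated dE9 library 1 (0.0529), and the changes of -0.48 ± 0.19 in dE9 (0.0707, and 0.0341 with the replicate block) and -0.42 ± 0.19 in iE9 (0.122) did not pass. MVK passed in no line, at -0.55 in dE9, -0.46 in iE9 and -0.62 in WT, and passed in dE9 and iE9 with the replicate block (0.00666 and 0.0262). Exons of MVK overlap those of MMAB, a cobalamin enzyme on the opposite strand, which fell by 1.03 in dE9, by 0.91 in iE9 and by 1.13 in WT (0.00535, 0.0136 and 0.0163). IDI1, which isomerizes isopentenyl diphosphate, had changes of -0.42 ± 0.24 in dE9 (0.205, and 0.0405 with the block), -0.08 ± 0.24 in iE9 (0.836) and -0.73 ± 0.3 in WT (0.0884).

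FDPS (chromosome 1, 155308748 to 155320666, plus strand), which makes farnesyl diphosphate at the branch between sterols and other isoprenoids, was the most abundant gene of the arm per length, at 870 ± 85.9 TPM (transcript abundance corrected for length and depth) in unstimulated WT cells (n = 2). It stood at 227, 254 and 164 CPM in PMA-treated dE9 cells, against 359, 347 and 332 CPM in unstimulated ones, at 226, 281 and 286 CPM with PMA in iE9, against 277, 562 and 408 CPM unstimulated, and at 295 and 252 CPM with PMA in WT, against 591 and 673 CPM unstimulated. The iE9 groups overlapped. FDPS fell by 0.69 ± 0.23 on the log2 scale in dE9 (adjusted p = 0.0303), by 0.65 ± 0.23 in iE9 (0.0457) and by 1.21 ± 0.28 in WT (0.00761). The iE9 call was lost without any 1 of 13 of the 16 libraries (0.058 to 0.255), on the iE9 groups alone (0.12) and with another normalization, edgeR's RLE (0.058), the dE9 call without WT PMA library 1 (0.0563), unstimulated dE9 library 1, 2 or 3 (0.096, 0.0663 and 0.0573) or PMA-treated dE9 library 3 (0.13), and the WT call without unstimulated WT library 2 (0.061), PMA library 1 (0.0519) or PMA library 2 (0.0835). The gene has 8 annotated pseudogenes, which can share its reads. FDFT1, which follows it as squalene synthase, passed in no line, at -0.22 ± 0.24 in dE9, -0.29 ± 0.24 in iE9 and -0.45 ± 0.3 in WT.

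Among the enzymes that trim lanosterol, DHCR7, a reductase of the last steps, stood at 74.7, 129 and 62.5 CPM with PMA, against 201, 200 and 154 CPM unstimulated in dE9, a fall of 1.06 ± 0.29 on the log2 scale (adjusted p = 0.0108). In iE9 it stood at 196, 122 and 109 CPM with PMA, against 300, 217 and 163 CPM unstimulated, with overlapping groups and a change of -0.67 ± 0.29 (0.0961, and 0.00465 with the replicate block). In WT it stood at 104 and 107 CPM with PMA, against 279 and 295 CPM unstimulated, a fall of 1.44 ± 0.35 (0.0102), lost without any 1 of the 4 WT libraries (0.0515 to 0.0876). NSDHL, a sterol dehydrogenase on the X chromosome, stood at 30.7, 28.6 and 31.5 CPM with PMA in iE9, against 54.8, 56.8 and 46.7 CPM unstimulated, and fell by 0.8 ± 0.15 (0.00113). In dE9 it stood at 33.3, 30.2 and 28.4 CPM with PMA, against 47.3, 38.3 and 37.8 CPM unstimulated and fell by 0.43 ± 0.15 (0.0343). That call was lost without a filter on low counts (0.221), on the dE9 groups alone (0.102), without any 1 WT library (0.052 to 0.0684), and without unstimulated dE9 library 1 (0.217), PMA-treated dE9 library 2 (0.121) or 3 (0.109). Its change in WT was -0.41 ± 0.18 (0.113).

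TM7SF2, a sterol reductase, moved the other way in dE9. It stood at 104, 128 and 92.1 CPM in PMA-treated dE9 cells, against 64.7, 53.5 and 41.8 CPM in unstimulated ones, and rose by 1.02 ± 0.25 on the log2 scale (adjusted p = 0.00583). The WT libraries held 101 and 112 CPM with PMA, against 48.8 and 68.5 CPM unstimulated, a change of 0.86 ± 0.3 (0.0551, and 0.0138 without the iE9 libraries numbered 1). In iE9 it stood at 158, 93.6 and 91.8 CPM with PMA, against 128, 98.9 and 79.8 CPM unstimulated, a change of 0.16 ± 0.25 (0.664) with overlapping groups. VPS51, whose exons overlap it on the same strand, had a log2 change of 0.02 in dE9 (0.938). SC5D, the desaturase of late sterol synthesis, had log2 changes of 0.63 ± 0.29 in dE9, 0.64 ± 0.29 in iE9 and 0.43 ± 0.35 in WT (adjusted p = 0.109, 0.115 and 0.41), and passed as higher with the replicate block in dE9 (0.0233) and iE9 (0.0218). The other trimming enzymes, CYP51A1, MSMO1, HSD17B7 and EBP, passed in no line, with changes between -0.79 and 0.31, although EBP passed as lower with the block in dE9 (0.00659) and iE9 (0.0325).

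**Figure D2:**
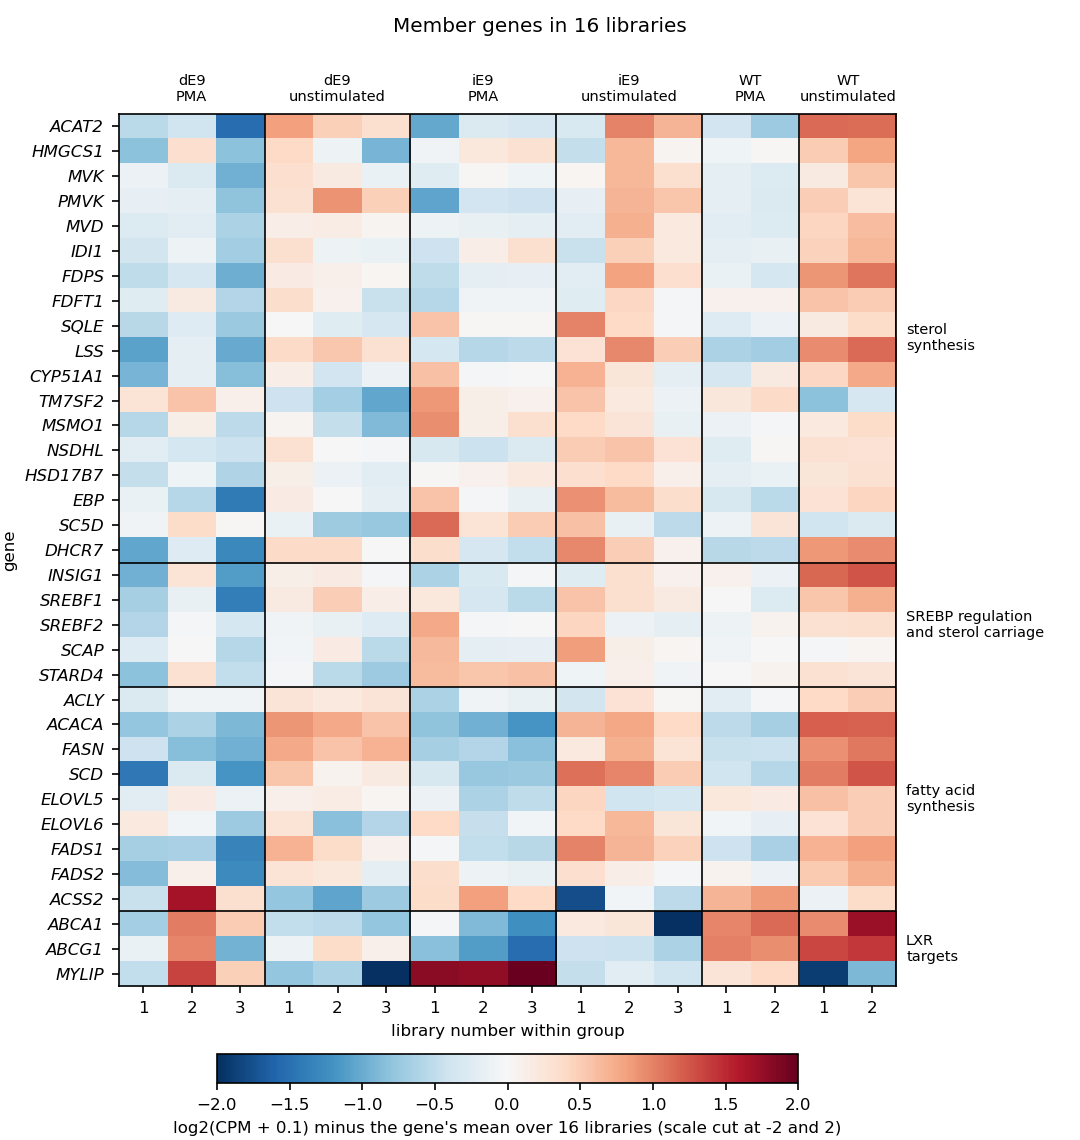
Level of the 35 genes (rows, grouped by role) in each of the 16 libraries (columns, numbered within their group), as log2(CPM + 0.1) minus the mean of the gene over all libraries. Red is above and blue below that mean, and the rows of ACACA, FASN, SCD, FADS1 and LSS are blue in the PMA columns of every line, while PMA-treated dE9 library 2 is the highest of its group for 29 of the 35 genes.

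Of the 5 genes that control SREBP or carry sterol, 1 fell in dE9, 0 passed in iE9 and 1 fell in WT, which is 20.0%, 0.0% and 20.0% of them and below the share of all genes in each line. INSIG1 (chromosome 7, 155297776 to 155310235, plus strand), itself an SREBP target, stood at 106, 250 and 95.5 CPM in PMA-treated dE9 cells, against 225, 233 and 204 CPM in unstimulated ones. The libraries labelled iE9 held 134, 168 and 201 CPM with PMA, against 176, 259 and 221 CPM unstimulated. Its WT levels were 220 and 191 CPM with PMA, against 458 and 496 CPM unstimulated. The WT groups were far apart and those of dE9 and iE9 overlapped. INSIG1 fell by 1.21 ± 0.36 on the log2 scale in WT (adjusted p = 0.0265), a call lost without any 1 of the 4 WT libraries (0.0974 to 0.167). Its changes of -0.55 ± 0.29 in dE9 (0.163, and 0.025 with the replicate block) and -0.38 ± 0.29 in iE9 (0.361) did not pass.

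SREBF1 (chromosome 17, 17810399 to 17837002, minus strand), the gene of SREBP1, stood at 106, 152 and 64.8 CPM with PMA, against 191, 238 and 185 CPM unstimulated in dE9, and fell there by 0.93 ± 0.26 on the log2 scale (adjusted p = 0.0142). The call was lost on the dE9 groups alone (0.0616) and without unstimulated dE9 library 2 (0.0557) or PMA-treated dE9 library 3 (0.0501). In iE9 it stood at 195, 134 and 116 CPM with PMA, against 251, 212 and 191 CPM unstimulated, a change of -0.56 ± 0.26 (0.131, and 0.0176 with the replicate block). WT cells had 168 and 140 CPM with PMA, against 248 and 278 CPM unstimulated, a change of -0.78 ± 0.32 (0.0962).

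SREBF2 (chromosome 22, 41833079 to 41907308, plus strand), the gene of the more sterol-directed SREBP2, stood at 189, 281 and 223 CPM with PMA, against 273, 256 and 239 CPM unstimulated in dE9, at 484, 281 and 285 CPM with PMA, against 386, 263 and 248 CPM unstimulated in iE9, and at 266 and 298 CPM with PMA, against 351 and 355 CPM unstimulated in WT. It had changes of -0.15 ± 0.23 in dE9, 0.23 ± 0.23 in iE9 and -0.32 ± 0.28 in WT (adjusted p = 0.66, 0.5 and 0.441). SCAP, the escort, stood at 102, 122 and 82.3 CPM with PMA, against 117, 137 and 83.9 CPM unstimulated in dE9, at 191, 108 and 109 CPM with PMA, against 218, 132 and 125 CPM unstimulated in iE9, and at 116 and 122 CPM with PMA, against 120 and 125 CPM unstimulated in WT. Its groups overlapped in each line, with changes of -0.14 ± 0.26 in dE9, -0.22 ± 0.26 in iE9 and -0.04 ± 0.32 in WT (0.722, 0.577 and 0.946). STARD4, a cytosolic sterol carrier, stood at 96.9, 91.6 and 93.7 CPM with PMA in iE9, against 58.9, 67.1 and 59.7 CPM unstimulated, a change of 0.6 ± 0.24 that did not pass (0.0727). Its changes were 0.15 ± 0.24 in dE9 and -0.25 ± 0.29 in WT.

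SREBF1 makes 2 proteins from alternative first exons, SREBP1a from the upstream start and SREBP1c, the form usual for fatty acid synthesis in liver, from starts that lie at least 13384 bases downstream here. Among transcripts with either of these starts, the downstream share of TPM was 22.4%, 37.3% and 48.0% in PMA-treated dE9 cells, against 58.4%, 58.5% and 62.4% in unstimulated ones. In the libraries labelled iE9 it was 49.6%, 38.6% and 53.7% with PMA, against 47.0%, 61.8% and 69.5% unstimulated. In WT it was 26.5% and 35.5% with PMA, against 57.2% and 65.4% unstimulated. By this measure the dE9 and WT groups did not overlap and the iE9 groups did. The difference was -23.9 points in dE9 (two-sided exact permutation p = 0.1, the smallest that 3 against 3 libraries allow), -12.2 points in iE9 (exact p = 0.3) and -30.3 points in WT (exact p = 0.333, the smallest for 2 against 2). Much of the downstream TPM belonged to a short retained-intron transcript, and without it the separation in WT was lost. Over protein-coding transcripts alone the share in WT was 7.64% and 35.5% with PMA, against 18.7% and 34.8% unstimulated, a difference of -5.18 points (exact permutation p = 1.0) with overlapping groups. In dE9 it was 22.4%, 21.3% and 18.0% with PMA, against 27.2%, 25.4% and 27.7% unstimulated, a difference of -6.18 points (exact p = 0.1) with groups that did not overlap. In iE9 the difference was -9.38 points (exact p = 0.3) and the groups overlapped.

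Among the LXR targets only MYLIP changed with PMA, and it is the ligase that marks lipoprotein receptors for degradation. MYLIP (chromosome 6, 16129125 to 16148248, plus strand) stood at 8.46, 30.8 and 16.7 CPM in PMA-treated dE9 cells, against 6.96, 7.71 and 2.43 CPM in unstimulated ones. In iE9 its levels were 42.3, 41.1 and 47.3 CPM with PMA, against 8.58, 10.3 and 9.12 CPM unstimulated. In WT it stood at 14.3 and 15.9 CPM with PMA, against 3.15 and 6.4 CPM unstimulated. The groups did not overlap in any line, and the PMA libraries of iE9 were the highest of the 16. MYLIP rose by 1.71 ± 0.44 on the log2 scale in dE9 (adjusted p = 0.00767, and 0.0639 on the dE9 groups alone), by 2.22 ± 0.44 in iE9 (0.00202) and by 1.66 ± 0.54 in WT (0.0396). The WT call was lost without any 1 WT library (0.0612 to 0.272), without PMA-treated iE9 library 2 (0.052) or 3 (0.0517), without both iE9 libraries numbered 1 (0.0525) and with effective-length offsets (0.059).

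The sterol exporters ABCA1 and ABCG1, the best-known LXR targets, passed in no line. ABCG1 had log2 changes of 0.05 ± 0.35 in dE9 (adjusted p = 0.932), -0.65 ± 0.36 in iE9 (0.2) and -0.39 ± 0.43 in WT (0.545). ABCA1 lay at 0.0696 to 2.37 CPM over the 16 libraries, with 0.368, 1.43 and 0.96 CPM with PMA, against 0.431, 0.421 and 0.339 CPM unstimulated in dE9, 0.64, 0.308 and 0.221 CPM with PMA, against 0.76, 0.787 and 0.0696 CPM unstimulated in iE9 and 1.37 and 1.54 CPM with PMA, against 1.34 and 2.37 CPM unstimulated in WT. At this level its changes were imprecise, at 1.2 ± 0.71 in dE9, -0.5 ± 0.73 in iE9 and -0.35 ± 0.82 in WT (0.217, 0.658 and 0.798).

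**Figure D3:**
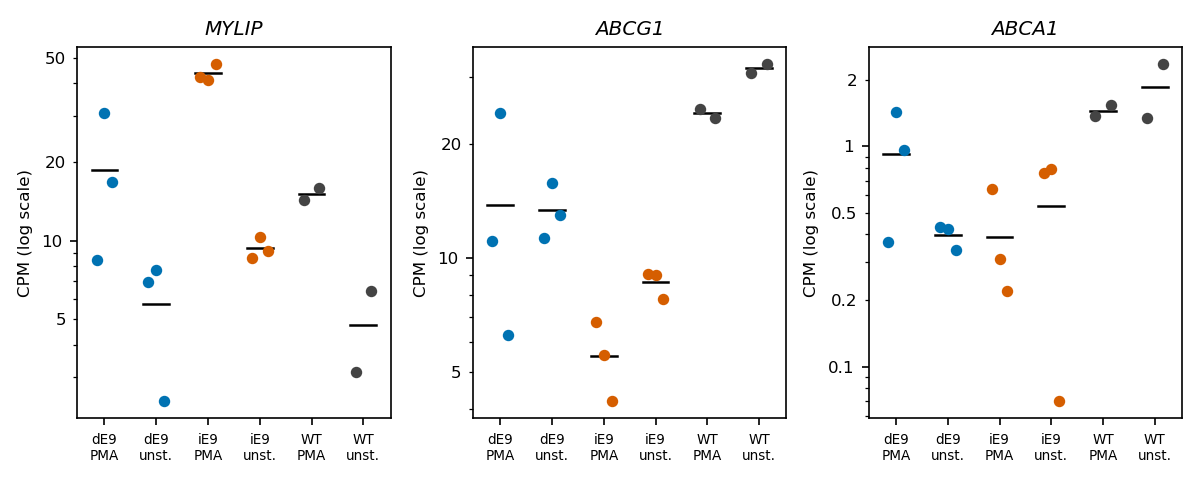
Level of the LXR targets MYLIP, ABCG1 and ABCA1 in CPM (log scales that differ between panels) by line and treatment; each point is 1 library and each bar the group mean. MYLIP lies above its unstimulated group in the PMA libraries of every line, and ABCG1 lies at 4.19 to 9.07 CPM in the libraries labelled iE9, below all WT libraries, at 23.4 to 32.5 CPM.

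Summed over length-corrected TPM, both arms were on average lower with PMA in each line. The sterol arm summed to 1580 ± 295 TPM with PMA and 2080 ± 314 TPM unstimulated in dE9, to 2130 ± 30.6 and 2500 ± 374 TPM in iE9, and to 1930 ± 42.4 and 3080 ± 269 TPM in WT. The fatty acid arm summed to 773 ± 148 TPM with PMA and 1170 ± 115 TPM unstimulated in dE9, to 888 ± 81.0 and 1190 ± 203 TPM in iE9, and to 994 ± 36.8 and 1640 ± 134 TPM in WT (SD, n = 3 for dE9 and iE9 and n = 2 for WT). The sterol groups overlapped in dE9, where PMA library 2 held 1880 TPM and unstimulated library 3 held 1740 TPM, and did not overlap in iE9 or WT. The fatty acid groups did not overlap in any line. The ratio of the sterol to the fatty acid sum was 2.05 ± 0.294 with PMA and 1.77 ± 0.101 unstimulated in dE9, 2.42 ± 0.252 and 2.13 ± 0.41 in iE9, and 1.94 ± 0.0283 and 1.88 ± 0.00707 in WT, with groups that overlapped in dE9 and iE9. In unstimulated WT cells the most abundant transcripts per length were those of FDPS at 870 TPM, FDFT1 at 539 TPM, ELOVL5 at 445 TPM and FADS2 at 419 TPM, and the scarcest were those of ABCA1 at 0.245 TPM, MYLIP at 3.04 TPM and ELOVL6 at 6.14 TPM.

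**Figure D4:**
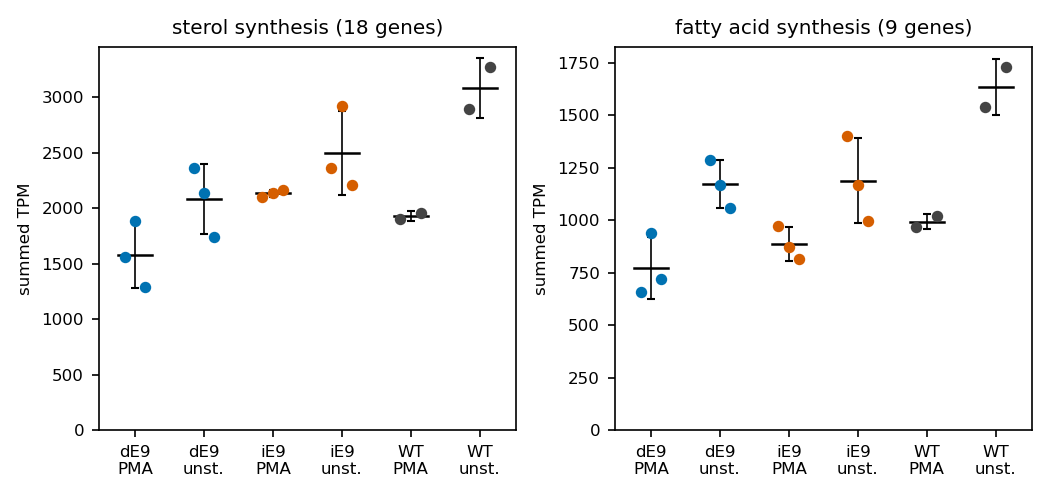
Summed TPM of the 18 sterol synthesis genes (left) and the 9 fatty acid synthesis genes (right) by line and treatment (unst., unstimulated). Each point is 1 library, the bar is the group mean and the whiskers are 1 SD; the fatty acid sums with PMA lie below the unstimulated sums of the same line, and the sterol sums do so in iE9 and WT.

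Genes next to these in metabolism were followed as lists, each read against the 33.5% of all genes that changed in dE9, the 27.1% in iE9 and the 22.3% in WT. Among 15 genes of the isoprenoid and prenylation branch, which leaves the sterol arm at farnesyl diphosphate, 6 fell and 1 rose in dE9, 6 fell and 1 rose in iE9 and 4 fell in WT (46.7%, 46.7% and 26.7% changed). Their median log2 change was -0.32 in dE9, -0.47 in iE9 and -0.34 in WT. PDSS1, which makes the side chain of ubiquinone, fell by 2.04 ± 0.2 on the log2 scale in dE9 (adjusted p = 8.71e-06), by 1.72 ± 0.2 in iE9 (3.97e-05) and by 1.86 ± 0.25 in WT (0.000208). COQ2, which attaches that side chain, fell by 1.37 ± 0.27 in dE9 (0.00156), by 1.03 ± 0.27 in iE9 (0.0119) and by 1.54 ± 0.34 in WT (0.00527). ICMT, which methylates prenylated proteins, fell by 1.19 ± 0.18 in dE9 (0.000265), by 0.97 ± 0.18 in iE9 (0.00152) and by 0.95 ± 0.23 in WT (0.00807).

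Of 19 further genes of fatty acid synthesis and elongation, 18 were tested, of which 3 rose and 5 fell in dE9, 1 rose and 5 fell in iE9, and 1 rose and 3 fell in WT (44.4%, 33.3% and 22.2% changed, the last at the share of all genes). Their median log2 change was -0.37 in dE9, -0.33 in iE9 and -0.35 in WT. MID1IP1, which promotes the polymerization of acetyl-CoA carboxylase, averaged 46.1 ± 9.12 CPM with PMA and 179 ± 21.1 CPM unstimulated in dE9, 40.7 ± 4.82 and 136 ± 49.0 CPM in iE9, and 57.5 ± 8.57 and 215 ± 13.3 CPM in WT. It fell by 1.96 ± 0.24 on the log2 scale in dE9 (adjusted p = 4.97e-05), by 1.74 ± 0.24 in iE9 (0.000157) and by 1.9 ± 0.3 in WT (0.000669). MLYCD, which breaks down malonyl-CoA, the product of ACACA, rose by 0.93 ± 0.17 in dE9 (0.000864), by 0.69 ± 0.17 in iE9 (0.00812) and by 1.06 ± 0.21 in WT (0.00291). MECR, of mitochondrial fatty acid synthesis, fell by 0.71 ± 0.16 in dE9 (0.00297), by 0.82 ± 0.16 in iE9 (0.00165) and by 0.88 ± 0.19 in WT (0.00507).

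Of 13 genes of fatty acid oxidation, 5 rose and 1 fell in dE9, 1 rose and 2 fell in iE9, and 2 rose and 1 fell in WT, with medians of 0.4, 0.19 and 0.31 in these lines. The changed share was 46.2% in dE9, above that of all genes, but 23.1% in iE9 and 23.1% in WT, below or near it. HADH, a dehydrogenase of mitochondrial oxidation, fell by 1.84 ± 0.24 on the log2 scale in dE9 (adjusted p = 8.22e-05), by 1.41 ± 0.24 in iE9 (0.000787) and by 1.81 ± 0.3 in WT (0.000975). The carnitine carrier SLC25A20 rose by 0.89 ± 0.19 in dE9 (0.00255) and 0.86 ± 0.23 in WT (0.0174), with 0.26 ± 0.19 in iE9 (0.343). Of 18 genes that activate fatty acids or build glycerolipids, 3 rose and 3 fell in dE9, 3 rose and 5 fell in iE9, and 2 rose and 2 fell in WT, with medians of -0.01, 0.06 and -0.16 in these lines. The changed share was at that of all genes in dE9 (33.3%) and WT (22.2%) and above it in iE9 (44.4%). The acyltransferase AGPAT5 fell by 1.06 ± 0.15 in dE9, 1.17 ± 0.15 in iE9 and 0.89 ± 0.18 in WT, and GPAM, which starts glycerolipid synthesis, fell by 0.99 ± 0.24 in dE9, 1.11 ± 0.24 in iE9 and 1.12 ± 0.29 in WT. The phosphatase LPIN1 rose by 0.97 ± 0.2 in dE9, 1.02 ± 0.2 in iE9 and 1.09 ± 0.24 in WT (adjusted p = 0.000124 to 0.0142 over these 3 genes and the lines, apart from 7.56e-05 for AGPAT5 in iE9).

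Of 12 genes of sterol transport, storage and uptake, 4 rose and 1 fell in dE9, 3 rose and 1 fell in iE9, and 2 rose and 2 fell in WT (41.7%, 33.3% and 33.3% changed), with medians of 0.14, 0.23 and 0.1 in these lines. The lipoprotein receptor SCARB1 averaged 21.4 ± 4.0 CPM with PMA and 74.4 ± 6.68 CPM unstimulated in dE9, 16.7 ± 1.55 and 96.1 ± 35.7 CPM in iE9, and 23.0 ± 1.06 and 83.2 ± 1.64 CPM in WT. It fell by 1.8 ± 0.22 on the log2 scale in dE9 (adjusted p = 4.95e-05), by 2.52 ± 0.23 in iE9 (6.7e-06) and by 1.86 ± 0.27 in WT (0.000458). The endosomal sterol carrier STARD3 rose by 1.19 ± 0.2 in dE9 (0.000498), by 1.14 ± 0.2 in iE9 (0.000934) and by 1.18 ± 0.25 in WT (0.00395). GRAMD1A, which moves sterol from the plasma membrane, rose by 1.08 ± 0.18 in dE9 (0.000445), by 0.66 ± 0.18 in iE9 (0.0128) and by 0.87 ± 0.22 in WT (0.0114).

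Of 7 further genes of SREBP processing, 1 rose and 1 fell in dE9, 1 fell in iE9, and 1 rose and 1 fell in WT (28.6%, 14.3% and 28.6% changed, below all genes in dE9 and iE9), with medians of -0.22, -0.06 and -0.18 in these lines. TMEM97, a sterol-regulated membrane protein, fell by 1.88 ± 0.27 on the log2 scale in dE9 (adjusted p = 0.00013), by 1.46 ± 0.26 in iE9 (0.00104) and by 1.88 ± 0.33 in WT (0.00126). INSIG2, the paralog of INSIG1, rose by 0.69 ± 0.16 in dE9 (0.00402) and 0.62 ± 0.2 in WT (0.0345), with 0.27 ± 0.16 in iE9 (0.218). Of 9 further genes of the LXR axis 8 were tested, of which 3 rose and 1 fell in dE9, 2 rose and 1 fell in iE9, and 2 rose and 1 fell in WT, with medians of 0.28, 0.26 and 0.29 in these lines and a changed share above that of all genes in each. RXRA, the partner receptor of LXR, averaged 81.0 ± 44.8 CPM with PMA and 9.92 ± 3.31 CPM unstimulated in dE9, 105 ± 13.5 and 13.4 ± 2.48 CPM in iE9, and 59.8 ± 14.2 and 9.05 ± 0.561 CPM in WT. It rose by 3.03 ± 0.4 on the log2 scale in dE9 (7.3e-05), by 2.97 ± 0.39 in iE9 (0.000107) and by 2.72 ± 0.48 in WT (0.00148). NR1H2, which encodes an LXR, rose by 0.47 ± 0.17 in dE9 (0.042) and 0.67 ± 0.21 in WT (0.0315), with 0.26 ± 0.17 in iE9 (0.281).

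The second question was whether the lines differed at the same treatment. No gene of the 35 passed between dE9 and WT in the main edgeR fit, unstimulated or with PMA, and 0.0% of all genes tested passed in either comparison. The unadjusted edgeR p was under 0.05 for 10 of the 35 unstimulated, against 560 of all 18073 genes tested, and for 0 with PMA, against 459. By DESeq2 0 of the 35 passed in both, against 0.0601% of all 33304 genes with a count unstimulated and 0.024% with PMA. Unstimulated, the log2 difference was nonetheless negative for 33 of the 35 genes, with a median of -0.47 where that of all genes was 0.01. The dE9 and WT libraries did not overlap for 28 of the 35 genes (80.0%, against 22.5% of all genes), with dE9 lower in all 28, where 11.7% of all genes did not overlap and were lower in dE9. With PMA the median was -0.22 and 2 genes, ELOVL5 and FADS1, did not overlap, both lower in dE9 (5.71%, against 12.9% of all genes, 6.57% lower in dE9). The WT group of 2 unstimulated libraries enters both this contrast and the WT response to PMA, so these comparisons share libraries and are not independent.

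INSIG1 and FDPS, chosen here after their values were seen, had the lowest unadjusted p of these genes between unstimulated dE9 and WT. INSIG1 stood at 225, 233 and 204 CPM in dE9, against 458 and 496 CPM in WT, a difference of -1.11 ± 0.32 (adjusted p = 1). FDPS stood at 359, 347 and 332 CPM in dE9, against 591 and 673 CPM in WT, a difference of -0.87 ± 0.25 (adjusted p = 1). Neither pair of groups overlapped, and neither difference passed the correction over all genes in the main edgeR fit. Without a filter on low counts INSIG1 passed (-1.11, adjusted p = 0.00243), as did ABCG1 (-1.24, 0.027). INSIG1 also lay below both WT libraries in unstimulated iE9, at 176, 259 and 221 CPM.

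Between the libraries labelled iE9 and WT, ABCG1 was the 1 gene of the 35 that passed in the main edgeR fit, lower in both treatments (1.12% of all genes tested changed with PMA, 0.791% lower, and 1.38% unstimulated, 0.703% lower). ABCG1 (chromosome 21, 42199689 to 42297244, plus strand) exports sterol to lipoproteins. With PMA it stood at 6.79, 5.54 and 4.19 CPM in iE9, against 24.7 and 23.4 CPM in WT. Unstimulated it stood at 9.07, 9.02 and 7.8 CPM in iE9, against 30.8 and 32.5 CPM in WT. The iE9 and WT groups were well apart in both treatments. The dE9 libraries lay between them unstimulated, at 11.3, 15.8 and 13 CPM, and reached into both with PMA, at 11.1, 24.1 and 6.27 CPM. The log2 difference of iE9 from WT was -2.13 ± 0.39 with PMA (adjusted p = 0.0178) and -1.87 ± 0.39 unstimulated (0.0298). With PMA the call was lost without any 1 of the 5 libraries compared (0.0548 to 0.148) and without both iE9 libraries numbered 1 (0.0624). Unstimulated it was lost without any 1 of the 5 libraries compared (0.0713 to 0.209), without WT PMA library 1 (0.0524) and without both iE9 libraries numbered 1 (0.0883). In 3 of these tests ELOVL5, named after its values were seen, passed in place of ABCG1 as lower in iE9. Without both iE9 libraries numbered 1 its log2 difference was -0.76 with PMA (adjusted p = 0.023) and -0.92 unstimulated (0.0118), and without unstimulated iE9 library 1 it was -0.92 unstimulated (0.0484). With all libraries its difference was -0.59 ± 0.24 with PMA (0.271) and -0.6 ± 0.24 unstimulated (0.238). In some alternatives other genes passed beside ABCG1. Unstimulated, INSIG1 was lower in iE9 without a filter on low counts (-1.12, adjusted p = 0.000241) and by DESeq2 (-1.13, 0.0262). It also passed on the groups alone (0.0472) and without PMA-treated dE9 library 2 (0.0159). Also unstimulated, TM7SF2 was higher without a filter (0.8, 0.0296) and ACACA lower by DESeq2 (-0.55, 0.0441). With PMA, MYLIP was higher without a filter (1.52, 0.000184), by DESeq2 (0.04) and on the groups alone (0.00506). The median difference of the 35 genes was 0.11 with PMA and -0.3 unstimulated. The groups did not overlap for 18 genes with PMA, 8 of them lower in iE9 (51.4%, against 41.2% of all genes, 21.3% lower), and for 15 genes unstimulated, 12 of them lower (42.9%, against 39.7% of all genes, 20.3% lower).

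Between the libraries labelled iE9 and dE9 no gene of the 35 passed in the main edgeR fit with PMA or unstimulated, where 2.61% and 1.72% of all genes tested did. The unadjusted edgeR p was under 0.05 for 12 of the 35 with PMA, against 3450 of all 18073 genes tested, and for 8 unstimulated, against 2726. By DESeq2 3 passed with PMA (8.57%, against 3.86% of all 33304 genes with a count) and 1 unstimulated (2.86%, against 2.52%). Of the 18073 genes that passed the filter, as all 35 did, DESeq2 called 1280 with PMA and 836 unstimulated. The sterol arm had a median difference of 0.36 with PMA and 0.29 unstimulated, and the fatty acid arm of 0.03 and 0.04.

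The third question was whether the lines differed in their response to PMA. No gene of the 35 passed for dE9 against WT, for iE9 against WT or for iE9 against dE9 in the main edgeR fit, and 0.0% of all genes tested passed. The unadjusted edgeR p was under 0.05 for 0, 1 and 1 of the 35 in this order, against 282, 1022 and 1239 of all 18073 genes tested. By DESeq2 0 of the 35 passed in each, against 0.003%, 0.177% and 0.342% of all 33304 genes with a count. The lowest unadjusted p values belonged to STARD4, with a response 0.86 ± 0.38 higher in iE9 than in WT (adjusted p = 0.846), and TM7SF2, with a response of -0.85 ± 0.35 in iE9 relative to dE9 (0.633), both named after their values were seen. Thus the falls of INSIG1 in WT and of DHCR7 in dE9 and WT, called in some lines and not in others, were not shown to differ between lines.

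Single libraries moved many of the genes together. PMA-treated dE9 library 2 was the highest of its 3 libraries for 29 of the 35 genes and library 3 the lowest for 23. Unstimulated dE9 library 1 was the highest of its group for 24 genes and library 3 the lowest for 27. Unstimulated iE9 library 2 was the highest of its group for 20 genes, and unstimulated WT library 2 the higher of 2 for 28. In the iE9 libraries numbered 1, which had the high mitochondrial share, 15 genes were above both other libraries in both treatments, among them SQLE, DHCR7, SREBF1, SREBF2, SCAP, SCD and FADS1, and 10 were below both in both treatments, among them ACAT2, HMGCS1, FDPS, FDFT1 and INSIG1. SREBF2 in those libraries stood at 484 CPM with PMA, against 281 and 285 CPM in the other 2, and at 386 CPM unstimulated, against 263 and 248 CPM in the other 2. Without both libraries numbered 1 the count of genes changed by PMA was 17 in dE9 (48.6%, against 41.6% of all genes in that fit), 12 in iE9 (34.3%, against 26.5%) and 13 in WT (37.1%, against 31.2%). The part of RNA quality in these differences was not tested.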

How the data were processed

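PolyA-selected RNA of 16 libraries was sequenced. Per the submitters' processing notes transcripts were quantified with Salmon on build hg38; no version or strand setting is given. Per the file headers each library's file gives expected counts (estimated reads), TPM and an effective length (in bases, from Salmon) for 205870 transcripts, all of which matched GENCODE release 29; a deposited gene table of TPM (16 value columns used, 0 unused) equalled the gene sums of the deposited TPM within 1.8e-12. These estimated counts were added up by gene, then rounded to whole numbers. Of 58295 genes 33304 had a count and 18073 passed edgeR's filterByExpr with a minimum count of 10. The alternatives without a filter and by DESeq2 covered all 33304 genes with a count.

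A quasi-likelihood model (edgeR 4.0.16, R 4.3.3) with 1 coefficient for each of 6 groups and TMM scaling was fitted to all libraries, and p-values were Benjamini-Hochberg adjusted over all genes tested, with a threshold of 0.05; the script was tested on simulated data. The common biological coefficient of variation was 31.8%. CPM are counts scaled to library size after TMM, and errors on log2 changes are SE. Alternatives were RLE scaling, no filter, DESeq2 1.42.0, effective-length offsets, leaving out both iE9 libraries numbered 1 or each library in turn, the groups compared alone, and the replicate number as a block. The numbers come from the labels: same-numbered PMA and unstimulated libraries deviated together in dE9 (r = 0.24 to 0.305) and iE9 (0.19 to 0.441), each pair over 0.1, but not in WT (0.073) or between lines. In iE9 a pair of unlike number, PMA library 3 with unstimulated library 2, was also over 0.1 (0.153). Libraries held 14536537 to 21888896 counts. No replicate pair was a duplicate: replicates differed beyond counting noise, with a chi-square of at least 7.14 per degree of freedom.

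The members and lists were chosen with earlier results of these data known. Genes given library by library were the called members with the smallest adjusted p, up to 12 a comparison, and a fixed set of 14 regulators and leading enzymes; from each further list up to 3 called genes with the smallest adjusted p in WT, of which some are not reported here.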

Additional observations from a re-analysis of the deposited data

How the results depend on the processing

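Of the 37 single-gene calls in the comparisons, 19 passed under all 23 alternatives, among them those of ACACA, FASN, SCD and LSS in all 3 lines, and none reversed in sign while called. The count of genes changed by PMA in WT was 32 of 35 when the WT groups were fitted alone (52.7% of all genes in that fit), 22 with the replicate block, which the WT libraries do not support, and 4 to 14 when single libraries were left out. In WT the 22 were 62.9%, against 36.5% of all genes with that block. The 14, without unstimulated iE9 library 1, were 40.0%, against 25.6% of all genes in that fit. The shares with single WT libraries left out are given above. In dE9 the count of genes changed by PMA was 22 with the replicate block (62.9%, against 45.2% of all genes). With single dE9 or iE9 libraries left out it was 10 (28.6%, against 28.1%) to 16 (45.7%, against 37.5%). In iE9 it was 18 with the block (51.4%, against 39.8%). With single dE9 or iE9 libraries left out it was 7 (20.0%, against 18.2%) to 12 (34.3%, against 30.3% or 32.4%). Shares of all genes without a filter and by DESeq2 are over the 33304 genes with a count. All 35 genes are among the 18073 that passed the filter, so these shares are not like those of the main fit. Of the 18073, DESeq2 called 824 unstimulated and 696 with PMA for iE9 against WT, and 836 and 1280 for iE9 against dE9. Between lines, unstimulated iE9 against WT gave 3 genes without a filter (8.57%, against 3.66% of all genes), 3 by DESeq2 (8.57%, against 2.47%) and 2 on the groups alone (5.71%, against 2.02%). With PMA it gave 2 without a filter (5.71%, against 3.49%), 2 by DESeq2 (5.71%, against 2.1%) and 2 on the groups alone (5.71%, against 4.06%). With single dE9 or iE9 libraries left out the count was 0 to 2 unstimulated (2 were 5.71%, against 1.47%) and 0 to 1 with PMA. Unstimulated dE9 against WT gave 2 without a filter, INSIG1 and ABCG1 (5.71%, against 0.396% of all genes). Unstimulated iE9 against dE9 gave 2 without a filter (5.71%, against 3.96% of all genes), 1 by DESeq2 (2.86%, against 2.52%) and 1 with the block (2.86%, against 2.02%). With PMA it gave 8 without a filter (22.9%, against 5.41%), 3 by DESeq2 (8.57%, against 3.86%) and 1 with the block (2.86%, against 2.81%). With single dE9 or iE9 libraries left out the count was 0 to 1 unstimulated (1 was 2.86%, against 2.04%) and 0 to 2 with PMA (2 were 5.71%, against 5.78% or 1.55%). The block, whose numbers do not pair the lines, called TM7SF2 unstimulated (0.94, adjusted p = 0.0386) and EBP with PMA (0.82, 0.0369). With PMA, ABCG1 also passed with effective-length offsets (-1.45, 0.0477) and ELOVL5 without both iE9 libraries numbered 1 (-0.52, 0.0454). The SREBF1 downstream-start difference was -5.18 points over protein-coding transcripts and -8.86 points in estimated counts in WT, and -6.18 and -7.4 points in dE9. In iE9 it was -9.38 points over protein-coding transcripts and -5.92 points in estimated counts, where it was -12.2 points in TPM over all transcripts. With single libraries left out it was -34.8 to -25.8 points in WT, -29.9 to -17.2 in dE9 and -18.4 to -7.13 in iE9. The causes of these shifts were not tested. Depth limits ABCA1 most, which lay at or under 2.37 CPM.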
